A study of Mus musculus with 6 samples.

Results

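Of the 24223 genes counted in this series, 9 are described here: the T-box factors *Tbx21* and *Eomes*, the Runx factors *Runx1*, *Runx2* and *Runx3* with their partner *Cbfb*, the homeobox gene *Hlx*, and the basic helix-loop-helix genes *Bhlhe40* and *Twist1*. They were taken by gene symbol from the RNA-Seq counts of each library, and all 9 symbols were found. Naive cells were CD4+ T cells that carried CD62L and lacked CD44, isolated with magnetic beads from the lymph nodes and spleens, pooled, of C57BL/6 mice aged 1 to 2 months. Th17 and Th1 cells were grown from such cells for 5 days with antibodies to CD3 and CD28 (or beads carrying both) and with anti-IL-4 in either culture. The Th1 medium also held IL-12 and IL-2, and the Th17 medium held anti-IFN-γ, TGF-β, IL-6, IL-1β and IL-23. No culture activated without polarizing cytokines was among the 6 libraries, so activation and polarization cannot be told apart in the comparisons with Naive.

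T-bet, the protein of *Tbx21*, is the factor that defines the Th1 lineage, and T cell receptor, interferon-γ and IL-12 signals induce it through STAT proteins. Runx proteins bind DNA as dimers with CBFβ, and Runx3 works together with T-bet at the interferon-γ gene and at the silencer of *Il4*. Eomesodermin is the close relative of T-bet best known from CD8 T cells and NK cells, Hlx is a homeobox protein that is known to act with T-bet, and Bhlhe40 is a repressor that limits IL-10 in Th1 cells. Twist1 is known as a brake on the cytokine output of Th1 cells.

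The counts on genes ranged from 17742158 to 69080017 per library, and replicate 1 was the deeper library of each cell type. Levels are CPM, counts scaled to the library total after correction by the TMM method of edgeR, given for replicates 1 and 2 in this order or as mean ± SD (n = 2 each). The error after a log2 fold change is its standard error (SE), the size of the log2 fold change divided by the square root of F. Of 6 T cell markers, 5 were in the counts, and all 5 were above 10 CPM in every library. The 5 Th17 markers summed to 1412 and 1877 CPM in Th17 and to no more than 10.5 CPM elsewhere. The 6 neutrophil and monocyte markers summed to 2536 and 3082 CPM in Th17, and to 343 and 203 CPM in Naive cells. In Th1 the sums were 28.3 and 35.2 CPM. *S100a8*, *S100a9* and *Lyz2* were highest in Th17, *S100a8* with 1149 and 1142 CPM. *Mpo* went the other way, with at least 159 CPM per Naive library and at most 68.1 CPM in Th17. *Elane* and *Csf1r* overlapped between these cell types. The 6 mast cell and basophil markers summed to between 36.0 and 314 CPM. Both Th17 libraries were the highest, at 132 and 314 CPM, although *Kit* among these markers was highest in Naive. The part of such cells in the values below was not tested. The 4 B cell markers summed to 15.1 CPM or less. The 4 markers of naive T cells did not separate the groups, with 2268 and 3521 CPM in Naive cells, 2629 and 2324 CPM in Th17, and 1833 and 3453 CPM in Th1, whereas the 3 Th1 markers reached 637 and 604 CPM in Th1 and at most 89.3 CPM elsewhere. In bulk RNA, fewer cells that express a gene and less RNA of it in each cell cannot be told apart.

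A gene was called when the adjusted p-value (Benjamini-Hochberg, over the 13607 genes tested) of edgeR's quasi-likelihood F-test, with TMM scaling and all 6 libraries in the fit, was under 0.01 and the log2 fold change was above 1 in size. Where other settings are named, the same thresholds were used. All 9 genes passed the filter on low counts, but *Twist1* passed it through its Th1 libraries. In Th17 relative to Naive, 1 of the 9 genes was called higher and 2 were called lower, where 4.01% and 1.43% of all genes tested were. In Th1 relative to Naive, 2 were called higher and 0 lower, beside 4.64% and 2.81% of all genes. In Th1 relative to Th17, 3 were called higher and 0 lower, beside 2.70% and 2.83%. The replicates of the cell types compared did not overlap for 6, 9 and 7 of the 9 genes in these comparisons. That separation is common with 2 libraries against 2 and was found for 65.5%, 56.0% and 66.6% of all genes. The 2 comparisons with Naive share the Naive libraries. Of all genes called between Th1 and Th17, 48.8% were higher in Th1, and 36.5% were with library size alone as the scale, which shifted the median of all genes by -0.21 there and by -0.25 for Th1 against Naive.

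**Figure D1:**
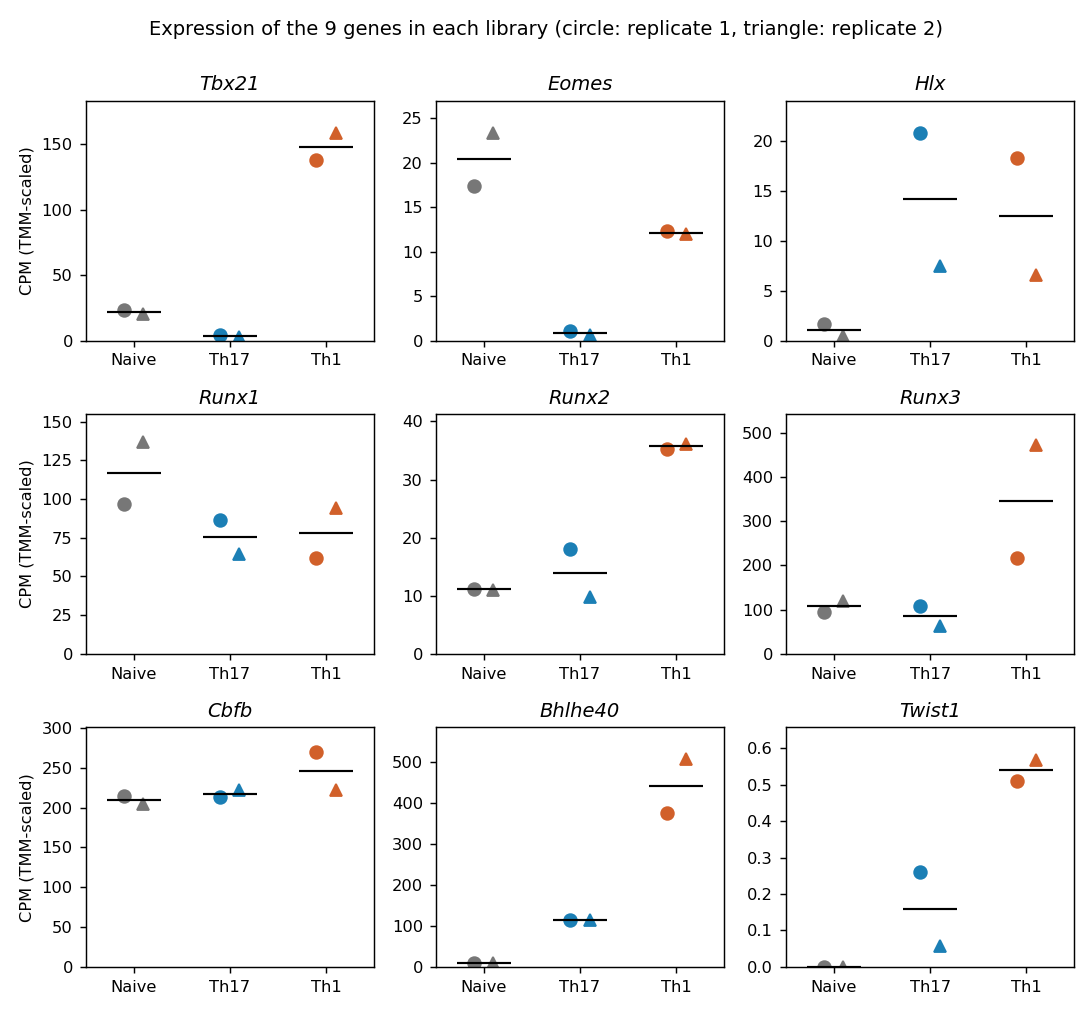
CPM of each gene (y axis, from 0, a separate scale per panel) in the 2 libraries of Naive, Th17 and Th1; circles are replicate 1, triangles replicate 2 and lines the mean. *Tbx21* in Th1 stood at 138 and 158 CPM above at most 23.3 CPM elsewhere, *Eomes* fell to about 1 CPM in Th17, and *Bhlhe40* stepped up from Naive over Th17 to Th1.

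*Tbx21* was up-regulated in Th1 and down-regulated in Th17 relative to Naive. It had 23.3 and 20.8 CPM in Naive cells, 4.58 and 2.72 CPM in Th17, and 138 and 158 CPM in Th1. The order was Th1, Naive, Th17, and each step in it was larger than the spread between replicates. In Th1, *Tbx21* was 6.71-fold higher than in Naive (log2 fold change 2.75 ± 0.31, adjusted p = 0.000459). In Th17 it was 6.06-fold lower than in Naive (log2 fold change -2.57 ± 0.32, adjusted p = 0.000846). Set directly against Th17, Th1 had 40.7-fold more *Tbx21* (log2 fold change 5.31 ± 0.35, adjusted p = 7.54e-05). By log2 fold change, it took rank 8 of 11773 genes in that comparison, counting those in which each library had more than 3 counts.

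*Tbx21* lies on the reverse strand of chromosome 11 of GRCm38 (mm10), from 97098071 to 97115331, with 2.488 kb of exon sequence in 6 blocks in GENCODE vM21. The 250 bases before its RefSeq start, chr11:97115332-97115581, are shown because *Tbx21* was called in all 3 comparisons and in opposite directions from Naive, and are written 5′ to 3′ on the gene's strand in lower case, since no motif searched for here was found in it. The motifs were the Runx core TGTGGT, the T-box half-site GGTGTGA and the E-box CACGTG, read on both strands.

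Tbx21 promoter: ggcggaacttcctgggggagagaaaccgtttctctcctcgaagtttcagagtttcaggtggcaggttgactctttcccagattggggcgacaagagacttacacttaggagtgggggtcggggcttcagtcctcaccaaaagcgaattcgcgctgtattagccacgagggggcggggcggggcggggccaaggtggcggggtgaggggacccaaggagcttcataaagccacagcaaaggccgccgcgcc

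This stretch is 60.8% G and C, beside a median of 52.4% over the 32851 promoters of the RefSeq table. Of those promoters, 14.0% hold the Runx core, 3.33% the T-box half-site and 6.02% the E-box within the same 250 bases. The absence of the letters says nothing about binding elsewhere at the locus.

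*Eomes*, the T-box relative on chromosome 9 from 118478212 to 118486132, was called lower in Th17 than in either other cell type. It had 17.4 and 23.3 CPM in Naive cells, 1.12 and 0.679 CPM in Th17, and 12.3 and 11.9 CPM in Th1. The Naive libraries were the highest and the Th17 libraries the lowest, with no overlap. In Th17, *Eomes* was 22.7-fold lower than in Naive (log2 fold change -4.44 ± 0.42, adjusted p = 0.000218), rank 18 from the lowest of the same 11773 genes. The Th17 values rest on 73 and 12 counts, with 95% intervals by exact Poisson limits of 0.876 to 1.40 CPM and 0.351 to 1.19 CPM, which cover counting error only. In Th1, *Eomes* was 13.5-fold higher than in Th17 (log2 fold change 3.70 ± 0.41, adjusted p = 0.000579). Between Th1 and Naive, the log2 fold change was -0.75 ± 0.36 (adjusted p = 0.197), which was not called, although both Th1 libraries lay under both Naive libraries.

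Since *Eomes* marks NK cells and CD8 T cells, their markers were read in the same libraries. The 5 NK cell genes summed to 19.8 and 11.8 CPM in Naive cells, 4.44 and 7.47 CPM in Th17, and 1.14 and 0.190 CPM in Th1. *Klrb1c*, which encodes NK1.1, made up most of the Naive sum with 17.4 and 11.2 CPM and was at 1.19 CPM or less in the other 4 libraries. *Klri2* went the other way and peaked in Th17, with 2.19 CPM in replicate 1 and 5.26 CPM in replicate 2. No library of another cell type had more than 0.681 CPM of it. *Klre1* stayed at 1.13 CPM or less throughout. *Klra8* had no count in any library, and *Ncr1*, the defining NK cell receptor NKp46, was at 0.749 CPM or less. The CD8 genes *Cd8a* and *Cd8b1* summed to between 5.66 and 11.3 CPM, and *Cd8a* alone reached at most 1.38 CPM. The part of such cells in the levels of *Eomes* was not tested.

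Per kilobase of exon, which allows different genes to be compared, *Tbx21* had 2.23 and 1.49 times the level of *Eomes* in the Naive libraries. This ratio was 6.84 and 6.68 in Th17 and 18.7 and 22.2 in Th1, so that it was higher in both cultures than in Naive. In Th17 the ratio was between 2 low levels, 1.47 ± 0.529 CPM per kb for *Tbx21* and 0.216 ± 0.0746 for *Eomes*. In Th1 these were 59.6 ± 5.80 and 2.92 ± 0.0597 CPM per kb.

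The counts hold 15 further T-box genes, and 7 of them had no count in any library. Only 3, *Mga*, *Tbx6* and *Tbx2*, passed the filter on low counts, and none of these was called in any of the 3 comparisons. Over all genes tested, the share called in 1 direction was between 1.43% and 4.64%. *Mga*, a T-box protein of the Max network, had between 49.6 and 122 CPM. *Tbx6* had between 5.71 and 11.4 CPM, and *Tbx2* no more than 1.56 CPM.

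*Runx3* had the highest CPM of the Runx genes in Th1, and its Th1 replicates were 2.17 times apart. It had 95.7 and 120.2 CPM in Naive cells, 108 and 62.0 CPM in Th17, and 217 and 471 CPM in Th1. Both Th1 libraries lay above the other 4, while Naive and Th17 overlapped. Relative to Naive, the log2 fold change in Th1 was 1.67 ± 0.41 (adjusted p = 0.0208), and against Th17 it was 2.02 ± 0.41 (adjusted p = 0.0112). Neither passed the threshold, and both did by DESeq2, with adjusted p-values of 0.00138 and 8.76e-05, and in edgeR with no filter on low counts. The change against Th17 also passed it with RLE factors (adjusted p = 0.00994) and in a fit of the 4 Th1 and Th17 libraries (adjusted p = 0.00811). Without Th1 replicate 2, the higher of the pair, the log2 fold changes were 1.01 and 1.35 (adjusted p = 0.134 and 0.0586), and without Th1 replicate 1 they were 2.16 and 2.47 and both were called (adjusted p = 0.00495 and 0.00276). In Th17 relative to Naive, the log2 fold change was -0.34 ± 0.40 (adjusted p = 0.575).

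*Runx3* lies on chromosome 4 from 135120652 to 135177990, and RefSeq gives it a distal and a proximal promoter, as is known for Runx genes. The counts do not separate the transcripts of the 2 promoters. The 250 bases before the distal start, chr4:135120395-135120644, hold the Runx core at 2 places on the reverse strand, as ACCACA from position -134 and from position -126 relative to the start, where -1 is the base just before it. They are shown because the product of the gene is a factor that reads this motif, with the motif in capitals. The single ACCACA before the RefSeq start of *Runx2* is shown with its flanks, chr17:44814690-44814719 on the reverse strand. That stretch lies inside *Runx2* as GENCODE places it, up to 44814797, since the 2 annotations differ in the start.

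Runx3 distal promoter: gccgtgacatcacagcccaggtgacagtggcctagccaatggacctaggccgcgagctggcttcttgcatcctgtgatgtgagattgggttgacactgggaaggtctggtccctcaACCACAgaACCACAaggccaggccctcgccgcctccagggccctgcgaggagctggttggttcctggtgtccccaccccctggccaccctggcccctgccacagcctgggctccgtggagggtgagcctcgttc

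Runx2 site: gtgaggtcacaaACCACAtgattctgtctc

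RefSeq gave 10 promoters for 8 of the 9 genes. The Runx core was found in 2 of them, those of *Runx3* and *Runx2* above, the E-box in 1, the distal promoter of *Runx1* at position -71, and the T-box half-site in 0. Over the 32851 RefSeq promoters, the shares were 14% for the Runx core, 6.02% for the E-box and 3.33% for the T-box half-site. A match of letters is a description of the sequence and no evidence of binding.

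*Runx1*, which is needed in blood stem cell and T cell development, had 97.0 and 137 CPM in Naive cells, 86.4 and 64.7 CPM in Th17, and 61.9 and 93.9 CPM in Th1. Both Naive libraries lay above the other 4, and Th17 and Th1 overlapped. The log2 fold change from Naive was -0.63 ± 0.31 for Th17 (adjusted p = 0.184) and -0.59 ± 0.31 for Th1 (adjusted p = 0.241), so that neither was called. Between Th1 and Th17 it was 0.04 ± 0.31 and turned to -0.19 with library size alone as the scale. *Runx1* spans chromosome 16 from 92601466 to 92826149, and the 12.025 kb of its exons are the longest of the 9 genes.

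*Runx2*, the bone factor of the family, had 11.2 and 11.0 CPM in Naive cells, 18.1 and 9.79 CPM in Th17, and 35.3 and 36.2 CPM in Th1. The Th1 libraries differed by less than 1 CPM and lay above all others. The log2 fold change in Th1 relative to Naive was 1.69 ± 0.35, and its adjusted p-value of 0.0101 was just over the threshold. It was 0.00841 with RLE factors, 0.00848 in a fit of the 4 Th1 and Naive libraries, 0.00956 after thinning to the smallest library and 6.40e-05 by DESeq2, so that this call depended on the setting. Against Th17, the log2 fold change was 1.35 ± 0.35 (adjusted p = 0.0290), which passed the threshold by DESeq2 (adjusted p = 0.00255) and in edgeR with no filter on low counts (adjusted p = 0.00232). *Runx2*, on chromosome 17 from 44495987 to 44814797, shares 519 exon bases with the antisense gene *Runx2os1* in GENCODE, *Eomes* shares 118 with *Gm33460* and *Runx1* 106 with *Gm26626*, and reads of such a pair cannot be told apart where strand is not kept.

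Taken per kilobase of exon, *Runx3* made up 67.2% and 65.6% of the summed *Runx1*, *Runx2* and *Runx3* CPM in Naive cells, 70.1% and 65.6% in Th17, and 82.6% and 88.8% in Th1. *Runx1* made up 28.4% and 31.0% in Naive cells, 23.3% and 28.5% in Th17, and 9.79% and 7.36% in Th1. The Th1 libraries thus lay apart from the other 4 for both genes, and Naive and Th17 overlapped for *Runx3*. *Runx2* held between 3.41% and 7.60% in every library. The ratio of *Runx3* to *Runx1* was between 2.11 and 3.01 in Naive and Th17, and 8.44 and 12.1 in Th1. These shares are a description, since 2 libraries against 2 allow no exact two-sided permutation p-value under 0.333.

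**Figure D2:**
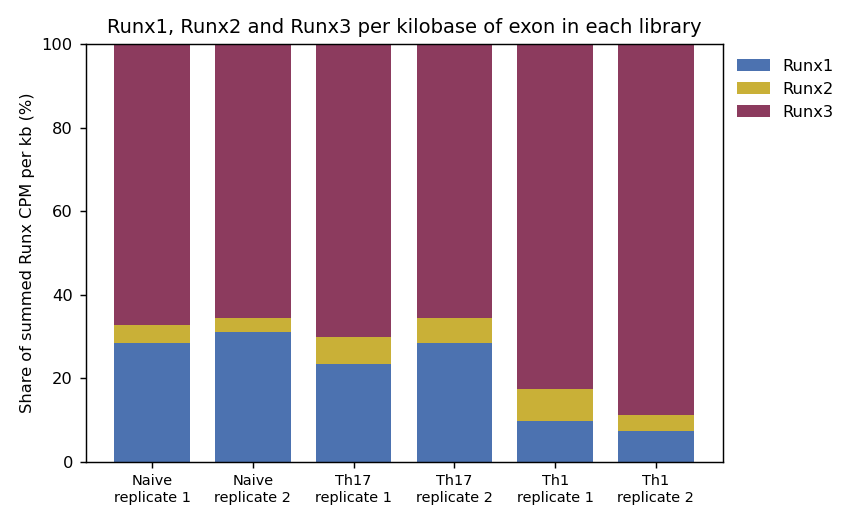
Share (%) that *Runx1*, *Runx2* and *Runx3* each take of their summed CPM per kilobase of exon, 1 stacked bar per library. The *Runx3* part is between 65.6% and 70.1% in Naive and Th17 and 82.6% and 88.8% in Th1.

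*Cbfb*, the subunit that all 3 Runx proteins need for stable DNA binding, was the steadiest of the 9 genes, and its means differed by at most 1.17 times. It had 215 and 205 CPM in Naive cells, 213 and 222 CPM in Th17, and 270.0 and 222 CPM in Th1. It lies on chromosome 8 from 105170674 to 105217989. No comparison was called, and the log2 fold changes were 0.05 in Th17 and 0.23 in Th1 relative to Naive and 0.18 in Th1 relative to Th17, each with a standard error of 0.26. The 2 comparisons of Th1 turned to -0.01 and -0.03 when library size alone was used for scaling, so no direction is given for them. The summed Runx CPM per kb was 0.461 and 0.623 times that of *Cbfb* in Naive, 0.504 and 0.295 times in Th17, and 0.678 and 1.66 times in Th1.

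*Hlx*, on chromosome 1 from 184727140 to 184732619, had more CPM in each Th17 and Th1 library than in either Naive library. It had 1.70 and 0.495 CPM in Naive cells, 20.8 and 7.52 CPM in Th17, and 18.3 and 6.64 CPM in Th1. Replicate 1 was above replicate 2 by 3.44, 2.76 and 2.76 times in Naive, Th17 and Th1, so that the 2 replicates of each culture were far apart while every culture library was above every Naive library. The log2 fold change from Naive was 3.61 ± 0.73 for Th17 (adjusted p = 0.0110) and 3.43 ± 0.73 for Th1 (adjusted p = 0.0111), just over the threshold. Both changes passed it with RLE in place of TMM factors in edgeR (adjusted p = 0.00815 and 0.00831), with no filter on low counts and by DESeq2 (adjusted p = 4.23e-06 and 1.19e-05), so that these calls depended on the setting. Among libraries with the same replicate number, the difference in log2 CPM was 3.57 and 3.80 for Th17 and 3.39 and 3.62 for Th1. Between Th1 and Th17, the log2 fold change was -0.18 ± 0.65 (adjusted p = 0.866), and it was -0.18 within either replicate number. Its sign changed to 0.74 without Th17 replicate 1 and to 0.36 without Th1 replicate 2.

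*Bhlhe40* had the largest change of the 8 genes that were counted in every library. It had 8.76 and 8.42 CPM in Naive cells, 116 and 114 CPM in Th17, and 377 and 508 CPM in Th1. The 3 cell types were far apart, in the order Th1, Th17, Naive, and the Naive and Th17 replicates were nearly level. In Th1, *Bhlhe40* was 51.5-fold higher than in Naive (log2 fold change 5.68 ± 0.32, adjusted p = 1.58e-05). In Th17 it was 13.4-fold higher than in Naive (log2 fold change 3.74 ± 0.30, adjusted p = 7.75e-05). Among the 11773 genes it ranked 32 by log2 fold change for Th1 against Naive and 96 for Th17 against Naive.

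Th1 also had 3.84-fold more *Bhlhe40* than Th17 (log2 fold change 1.94 ± 0.27, adjusted p = 0.00188). This call was lost without Th17 replicate 1, without Th17 replicate 2 and without Th1 replicate 2, with adjusted p-values of 0.0202, 0.0271 and 0.01004 and log2 fold changes of 1.95, 1.93 and 1.71. *Bhlhe40* lies on chromosome 6 from 108660629 to 108666925. The antisense gene *0610040F04Rik* shares 118 bases with its exons and had at most 7 counts in any library.

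*Twist1*, on chromosome 12 from 33957671 to 33959829, was near the limit of detection. It had no count in either Naive library, which allows up to 0.0440 and 0.149 CPM when 3 counts are taken as the limit. The Th17 libraries had 17 and 1 counts (0.260 and 0.0566 CPM), and the Th1 libraries 33 and 9 counts (0.511 and 0.569 CPM). The Th1 libraries were alike in CPM, and both lay above the Th17 libraries. The mean of *Twist1* was 5.61 times the mean of the Naive limits, 0.0963 CPM, in Th1 and 1.64 times in Th17. These ratios leave out the counting error of the cultures and are no lower bound. None of its comparisons was called, with adjusted p-values of 0.0132 in Th1 and 0.0460 in Th17 relative to Naive and 0.252 between Th1 and Th17. The change in Th1 from Naive passed the threshold with no filter on low counts (adjusted p = 0.000753) and missed it by DESeq2 (adjusted p = 0.0102). In Th1 relative to Th17, the log2 fold change was 1.52 ± 0.87.

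**Figure D3:**
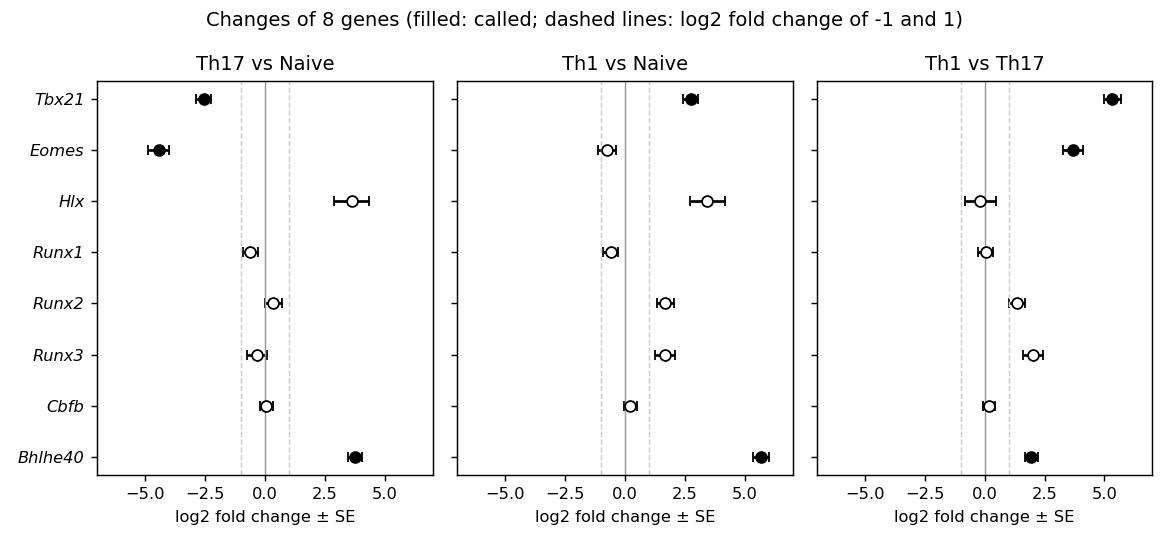
Log2 fold change ± standard error (x axis) of 8 genes in the 3 comparisons, with called changes filled and dashed lines at -1 and 1; *Twist1* is left out because Naive had no counts. *Tbx21* is called on opposite sides of 0 in Th17 (-2.57) and Th1 (2.75) relative to Naive, *Bhlhe40* is called in all 3 panels, and *Cbfb* lies near 0 in each.

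Ranked by CPM per kb, *Cbfb* led the 9 genes in Naive with 60.2 ± 2.05, followed by *Runx3* with 21.6 ± 3.47. *Runx1* and *Tbx21* came next with 9.72 ± 2.34 and 8.88 ± 0.703 and overlapped, then *Eomes* with 4.91 ± 1.00. *Bhlhe40* with 1.83 ± 0.0517, *Runx2* with 1.26 ± 0.00899 and *Hlx* with 0.482 ± 0.375 were at the lower end. In Th17, *Bhlhe40* had moved up to the second place with 24.5 ± 0.251, below *Cbfb* with 62.5 ± 1.91, and *Tbx21*, which overlapped *Runx2*, and *Eomes* were the lowest but for *Twist1*. In Th1, 4 genes stood above all others, *Bhlhe40* with 93.9 ± 19.7, *Cbfb* with 70.7 ± 9.68, *Runx3* with 68.8 ± 35.9 and *Tbx21* with 59.6 ± 5.80. *Runx3* overlapped each of the other 3, and *Bhlhe40* lay above *Cbfb* and *Tbx21*. The next gene in Th1 was *Runx1* with 6.48 ± 1.88.

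Genes with a like pattern were sought for the 3 genes called in any comparison, by Pearson's r of log2 CPM over the 6 libraries among 9637 genes. The closest to *Tbx21* were *Tns1* (r = 0.997), which had 112 and 134 CPM in Th1 and 9.84 and 6.51 CPM in Th17, and *Eif3c* (r = 0.997). For *Eomes* they were *Ncoa5* (r = 0.998) and *Exosc10* (r = 0.997), although *Ncoa5* moved only between 57.4 and 90.6 CPM. For *Bhlhe40* they were *Kcnj8* (r = 0.998) and *Gadd45g* (r = 0.997), the latter with 7.68 and 7.08 CPM in Naive cells, 106 and 84.8 CPM in Th17, and 448 and 466 CPM in Th1. All points come from the same 6 libraries and share their depths, and r describes only the shape of a pattern.

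Lists of related genes were set beside the 9. The signals that induce Th1 factors were represented by 12 genes, those of receptors, kinases and STAT proteins and *Irf1*, all tested. Relative to Naive, 5 were called higher and 1 lower in Th1, beside 4.64% and 2.81% of all genes. In Th17, 1 was called higher than in Naive and 0 lower, beside 4.01% and 1.43% of all genes. *Il12rb2*, the inducible chain of the IL-12 receptor, was at 3.82 and 3.76 CPM in Naive cells but reached 338 and 281 CPM in Th1, a log2 fold change of 6.35 ± 0.37 (adjusted p = 1.58e-05). *Il18r1*, *Ifngr1* and *Il12rb1* were also called higher in Th1 than in Naive, with log2 fold changes of 4.08, 2.62 and 2.05, and *Stat4* was the fifth with 1.33. *Ifngr2*, the signalling chain of the interferon-γ receptor, was the 1 gene called lower in Th1, by a log2 fold change of -3.16 ± 0.47 from Naive (adjusted p = 0.00202). In Th1 relative to Th17, *Il12rb2* and *Il18r1* were called higher and *Ifngr2* lower, beside 2.70% and 2.83% of all genes. The list's median log2 fold change was 0.06 for Th17 and 0.86 for Th1 against Naive and 1.05 for Th1 against Th17, beside medians of all genes between -0.03 and -0.02.

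Of 13 Th1 effector and surface genes downstream of these factors, 9 were called higher in Th1 than in Naive and 0 lower, with a median log2 fold change of 2.34, beside 4.64% and 2.81% of all genes and a median of -0.02. The largest were those of *Gzmb*, *Ifng*, *Il18rap* and *Hopx* at 6.34, 5.19, 4.09 and 3.43. In Th1 relative to Th17, 7 were called higher and 0 lower, with a median of 1.56 (all genes 2.70%, 2.83% and -0.03), led by *Hopx*, *Fasl*, *Nkg7* and *Cxcr3* with log2 fold changes of 4.41, 4.23, 4.04 and 3.64. In Th17 relative to Naive, the list was divided, with 5 genes called higher, 3 lower and a median of -0.49 (all genes 4.01%, 1.43% and -0.02). *Gzmb*, *Ifng*, *Ccl3* and *Cxcr6* were called higher there, with 5.41, 3.64, 3.14 and 2.99, and *Il18rap* was the fifth. *Fasl*, *Nkg7* and *Cxcr3* were called lower, with -2.14, -2.07 and -2.05, and these 3 were called in the same directions as *Tbx21* in all comparisons. *Ifng* itself had 64.6 and 48.7 CPM in Th17, 4.55 and 4.56 CPM in Naive cells, and 177 and 157 CPM in Th1.

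Of 9 genes of Runx cofactors, 8 were tested, and *Runx1t1* was the other. In Th1, the Groucho corepressor *Tle1* was called lower than in Naive (log2 fold change -3.09) and than in Th17 (-2.70), with 2.07 and 2.21 CPM in Th1 and at least 13.9 CPM elsewhere. *Tle3*, another Groucho gene, was called higher in Th1 than in Th17 (log2 fold change 2.11 ± 0.38, adjusted p = 0.00638), with 710 and 936 CPM in Th1 and 241 and 140.0 CPM in Th17. *Cbfa2t3* was called lower in Th1 than in Naive, where its libraries had 26.7 and 6.73 CPM. *Tle2*, also called lower in Th1 than in Th17, stayed at 2.71 CPM or less and had only 3 counts in Th1 replicate 2. Of the 8 genes, 0 were called higher and 2 lower in Th1 than in Naive, beside 4.64% and 2.81% of all genes. Against Th17, 1 was called higher and 2 lower in Th1, beside 2.70% and 2.83%. In Th17 relative to Naive, 0 of these 8 genes were called by edgeR, beside 4.01% higher and 1.43% lower of all genes. The median log2 fold change of the 8 was -0.72 for Th17 and -1.06 for Th1 against Naive. It was 0.05 for Th1 against Th17, and the medians over all genes were -0.02, -0.02 and -0.03.

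Among the factors of other lineages, *Gata3*, the Th2 factor, had 57.5 and 82.4 CPM in Naive cells, 18.4 and 8.54 CPM in Th17, and 117 and 241 CPM in Th1. It was called lower in Th17 than in Naive (log2 fold change -2.36 ± 0.45, adjusted p = 0.00799) and higher in Th1 than in Th17 (3.71 ± 0.47, adjusted p = 0.00109). *Foxp3*, the factor of regulatory T cells, was called lower in Th1 than in Naive (log2 fold change -2.45). It had 39.2 and 69.9 CPM in Naive cells, 19.2 and 12.7 CPM in Th17, and 6.95 and 13.2 CPM in Th1. Both Th17 libraries also lay below both Naive libraries, but that change was not called (-1.77 ± 0.42, adjusted p = 0.0210). Th17 and Th1 overlapped, and their difference was not called (-0.68 ± 0.41, adjusted p = 0.274). Of the relatives of *Bhlhe40* and *Twist1*, *Bhlhe41* had 1.33 and 2.26 CPM in Th17 and at most 0.250 CPM elsewhere and was not called, and *Twist2* was at 0.0309 CPM or less and was not tested.

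**Figure D4:**
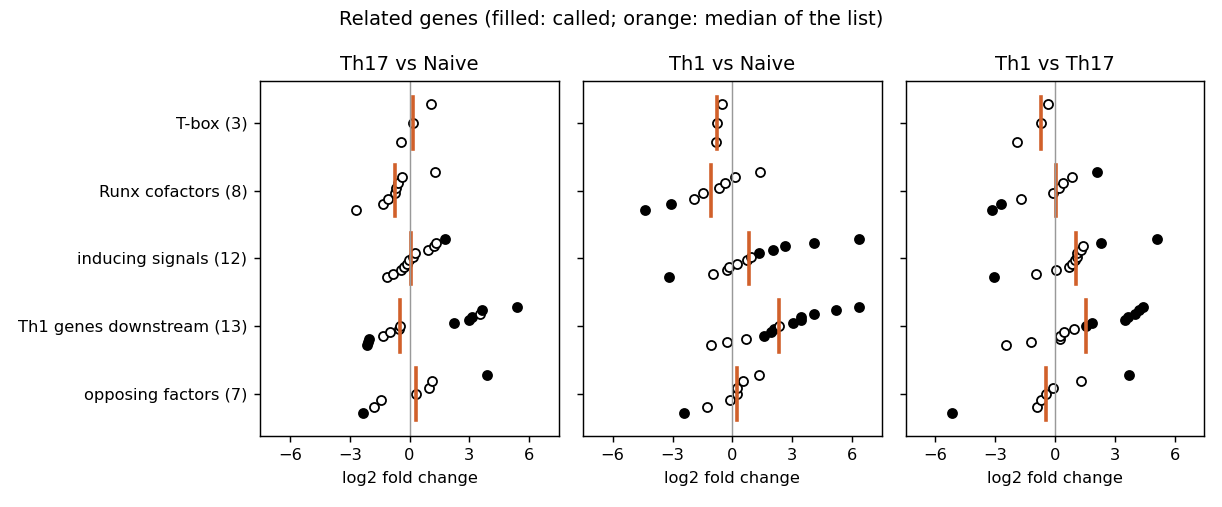
Log2 fold change (x axis) of each tested gene of the 5 related lists in the 3 comparisons, with called genes filled, list medians as orange bars and the number of genes tested in brackets. The 13 Th1 genes have a median of 2.34 in Th1 relative to Naive and are divided around 0 in Th17 relative to Naive, with 5 called above it and 3 below.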

How the data were processed

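Polyadenylated RNA of Naive, Th17 and Th1 cells was amplified by Smart-seq2 and sequenced in 6 libraries, 2 per cell type. The paper's methods give isolation of total RNA and libraries made by a company, and do not name Smart-seq2. The methods call the replicates biological. The authors mapped the reads to mm10 with Hisat2 (v2.2.1), removed duplicates and obtained raw counts for each protein-coding gene with HTSeq (v0.13.5). The methods give default settings for HTSeq and the supplementary code gives reverse strandedness. The deposited counts were used as they are.

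The groups follow the sample titles. Counts were scaled by TMM and tested in R 4.3.3 with edgeR 4.0.16 (quasi-likelihood F-test, limma 3.58.1) in 1 fit to the 6 libraries that held no term but cell type, after filterByExpr had kept 13607 of 24223 genes. TMM factors ranged from 0.862 to 1.09. Log2 CPM used a prior count of 2. The study used DESeq2, which was run here (1.42.0) as an alternative with its thresholds. Other alternatives were RLE factors, library size alone, no filter, a minimum of 10 counts per library, a block for the replicate number, a fit to just the 4 libraries of a comparison, thinning to the smallest total, an adjusted p-value of 0.05 and leaving out each library. Values within a replicate number were added after seeing the data. The model was tested on simulated data.

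Exon lengths came from GENCODE vM21 (GRCm38), promoters from RefSeq (GRCm38.p6). The genes, lists and tests were chosen with earlier results of these data known. Named are the 9 genes, the called genes of each list (up to 4 per direction, largest change first, with more than 3 counts in every library, the others, such as *Tle2*, *Stat4* and the uncalled genes of a list, chosen after their values were seen), and the 2 genes with the highest r for each called gene, among genes with at least 10 CPM in a library and more than 3 counts in each. Intervals and limits cover counting error only. 1 gene of the lists is not reported here.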

Additional observations from a re-analysis of the deposited data

Results flagged for a closer look

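For 3 of the 9 genes, the change from Naive differed between Th1 and Th17 by the test of Th1 against Th17. The difference was a log2 fold change of 5.31 for *Tbx21*, which was called in opposite directions from Naive, 3.70 for *Eomes*, which was called lower than Naive in Th17 and not called in Th1, and 1.94 for *Bhlhe40*, which was called higher in both cultures.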

How the results depend on the processing

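Leaving out 1 library, the calls of *Tbx21* and *Eomes* held in each comparison in which they were made, as did those of *Bhlhe40* relative to Naive, and they held under each other alternative run. Of 402 alternative log2 fold changes of the 9 genes, 346 kept their direction and side of the threshold, 43 became called, 3 lost the call (*Bhlhe40*, Th1 against Th17) and 10 changed sign. The cause of these changes was not tested.

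Over all genes, Th17 against Naive gave 1717 calls by DESeq2 (1047 higher, 670 lower, or 61.0% higher beside 73.7%), 2154 with no filter (1203 and 951), 343 with at least 10 counts in each library (250 and 93) and 2063 at an adjusted p of 0.05 (1223 and 840). The lower calls were 123 with library size alone, 329 with the replicate block and 308 in a fit of 4 libraries. Th1 against Naive gave 1917 by DESeq2 (1110 and 807), 2259 with no filter (1287 and 972), 674 with at least 10 counts (217 lower) and 2164 at 0.05 (1188 and 976), with 399 higher by library size alone. Th1 against Th17 gave 1797 by DESeq2 (925 and 872), 2232 with no filter (1188 and 1044), 411 with at least 10 counts (159 lower) and 2112 at 0.05 (1036 and 1076), with 202 higher by library size alone. Leaving out 1 library gave 316 to 1042 calls for Th17 against Naive (288 to 732 higher, 28 to 310 lower), 593 to 883 for Th1 against Naive (370 to 593 higher, 150 to 471 lower) and 187 to 1061 for Th1 against Th17 (73 to 489 higher, 114 to 572 lower).

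Of the 9 genes, Th17 against Naive had 2 called higher by DESeq2, RLE factors, no filter, the replicate block and the 4-library fit, and 3 higher and 5 in all at 0.05. Over all genes, the higher calls also rose, from 545 to 586 with RLE factors, 706 with the replicate block and 725 in the 4-library fit. Th1 against Naive had 5 called by DESeq2 and the replicate block, 4 by RLE factors, and 6 with no filter or at 0.05, all higher. The higher calls over all genes rose there too, from 631 to 1110 by DESeq2, 839 with the replicate block and 662 with RLE factors. Th1 against Th17 had 5 called, all higher, by DESeq2, with no filter and at 0.05. Leaving out 1 library gave 3 to 4 (1 to 2 higher), 2 to 4 and 2 to 4 calls in these comparisons.

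With library size alone, *Cbfb* turned to -0.0108 in Th1 against Naive and to -0.0289 against Th17, and *Runx1* to -0.19 in Th1 against Th17, which was -0.0441 with at least 10 counts. Leaving out 1 library, the log2 fold change ranged from -0.29 to 0.31 for *Runx1* and from -1.10 to 0.74 for *Hlx* in Th1 against Th17, and from -0.18 to 0.71 for *Runx2* and from -0.80 to 0.0026 for *Runx3* in Th17 against Naive. Without division by exon length, *Runx1* made up 49.3%, 44.0% and 17.7% of the Runx sum in Naive, Th17 and Th1, *Runx2* 4.80%, 7.85% and 8.62%, and *Runx3* 45.9%, 48.1% and 73.7%. By Spearman's rho, 4 of the 6 genes named for their pattern were tied at the highest rho.

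The libraries of 1 replicate number share that number and a like depth, and the sample titles do not say whether they share more. Their deviations correlated at -0.231 (Naive and Th17), 0.168 (Naive and Th1) and 0.0766 (Th17 and Th1). With the replicate block, *Hlx* was called in both cultures relative to Naive, *Runx2* and *Twist1* in Th1 relative to Naive, and *Runx3* in Th1 against Th17. Replicate 2, the shallower library of each cell type, limits low genes most, and *Twist1* had 0, 1 and 9 counts there.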
